A study of Mus musculus with 35 samples.

Results

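Zscan4a to Zscan4f, the members of a gene cluster on mouse chromosome 7, were followed through 4 groups of embryos. Members were chosen by gene symbol. Of the 6 names, 5 (Zscan4a, Zscan4b, Zscan4c, Zscan4d and Zscan4f) had a row among the 24480 rows of the gene count table, and Zscan4e had none. Wild-type C57BL/6NRj zygotes or 2-cell (2C) embryos had been injected in the cytoplasm with in vitro transcribed Kdm5b-yfp mRNA at about 1150 ng/µl, or with water. KDM5B is a demethylase that removes methyl groups from lysine 4 of histone H3. The 35 RNA-seq samples comprised 10 control and 10 Kdm5b zygotes, collected at 17 h after ovulation, and 9 control and 6 Kdm5b 2C samples, collected between 5.5 and 8 h after division. Control 2C replicates 1 to 6 and Kdm5b 2C replicates 1 to 5 were single intact embryos, whereas control 2C replicates 7 to 9 and Kdm5b 2C replicate 6 were pools of 2 or 3 loose blastomeres from different embryos. The 2C embryos came from frozen and thawed zygotes, were injected after the division, and had their libraries made on another day than the zygotes, so stage, freezing and library day cannot be told apart in any comparison of 2C samples with zygotes.

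Zscan4 genes encode nuclear proteins with a SCAN domain, which pairs with other SCAN domains, and zinc fingers, which bind DNA. They are known as genes of the burst of transcription in the mouse 2C embryo, and they switch on for short periods in rare embryonic stem cells, where ZSCAN4 acts in telomere lengthening by recombination. Other genes and the endogenous retrovirus MERVL come on in the same window, and the homeodomain factor Dux activates many of them, Zscan4 included.

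The 5 counted members spanned 608 kb of chromosome 7 (GRCm38, positions 10794241 to 11402318). Zscan4a lay at 10794241 to 10799065, Zscan4b at 10900740 to 10905050 and Zscan4d at 11161643 to 11166148, all on the minus strand. Zscan4c lay at 11005745 to 11010547 and Zscan4f at 11397915 to 11402318, both on the plus strand. Each was counted over 4 exons. Zscan4b, Zscan4c, Zscan4d and Zscan4f are annotated as protein coding in both RefSeq and GENCODE, and their longest coding sequences in GENCODE ran to 505 codons for Zscan4b and 506 for the others, stop codon included. RefSeq lists Zscan4a as a transcribed pseudogene. Zscan4e (11306369 to 11310682, minus strand) and 3 further copies, Zscan4-ps1, Zscan4-ps2 and Zscan4-ps3, are pseudogenes in RefSeq and had no row. GENCODE lists each of these as protein coding, with 505 codons for Zscan4e and 506 for the 3 further copies, stop codon included. The only other row between the outermost members was Mir297-1, with a count of 0 in every sample.

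The promoters of the coding members were nearly the same sequence. RefSeq promoters (250 bases before to 50 after the start, GRCm38.p6) were held for 4 members, Zscan4b, Zscan4c, Zscan4d and Zscan4f, and their pairwise identity ran from 95.3% to 99.3%. The stretch below is shown because it holds the 2 sequence elements that all 4 share, in capitals. TGATAGAATCA has TGAT and AATCA at a spacing of 2 bases, a pattern of the kind that double homeodomain factors such as Dux bind. TATAAA is the sequence of a TATA box. Relative to the annotated start it began at -31 in Zscan4b and Zscan4f, at -54 in Zscan4c and at -65 in Zscan4d. Each line reads 5′ to 3′ on the strand of the gene.
Zscan4b (chr7:10905066-10905151, minus strand): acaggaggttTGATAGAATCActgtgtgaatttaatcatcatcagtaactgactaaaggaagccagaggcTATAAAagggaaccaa
Zscan4c (chr7:11005621-11005706, plus strand): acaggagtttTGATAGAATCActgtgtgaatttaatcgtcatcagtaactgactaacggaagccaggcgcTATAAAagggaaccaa
Zscan4d (chr7:11166198-11166283, minus strand): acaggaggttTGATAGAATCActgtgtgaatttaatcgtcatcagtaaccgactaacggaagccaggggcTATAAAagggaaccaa
Zscan4f (chr7:11397814-11397899, plus strand): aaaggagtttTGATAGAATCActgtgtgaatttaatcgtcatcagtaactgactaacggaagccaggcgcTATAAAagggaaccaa

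Over these 86 bases Zscan4c and Zscan4f differed at 1 position, and the most different pair, Zscan4b and Zscan4f, at 6. The spacing between the elements was 49 bases in each. Searched on both strands, TGAT followed after any 2 bases by AATCA was found in all 4 members and in 0.207% of the 32851 RefSeq promoters of this length, and TATAAA in all 4 members and in 13.6% of all promoters; the 2 elements did not overlap. None of the 4 windows held GGATTA, which 7.06% of all promoters held. The same was so for TGCACAC, held by 4.40%, for CACGTG, held by 7.15%, and for GGGCGG, held by 35.7%. A match is a string of letters, not a measured binding site.

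The exons were as alike as the promoters, and this bears on every count. Over the counted exons the 10 pairs of members were 96.8% to 99.6% identical, with Zscan4c and Zscan4f the closest pair. Fragments that mapped to more than 1 place had not been counted, so a member was measured only where its sequence was its own. After trimming, a read was 91 bases long. Of all windows of that length in the exons, the share found in no other annotated transcript was 66.5% for Zscan4d, 57.4% for Zscan4a, 25.4% for Zscan4c, 18.6% for Zscan4b and 9.37% for Zscan4f. Zscan4b shared 79.4% of its windows with Zscan4e, and Zscan4f shared 76.6% with Zscan4-ps2 and 71.8% with Zscan4c. A paired fragment can be placed by either mate and introns were not searched, so these shares describe the sequence and are no exact correction.

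**Figure D1:**
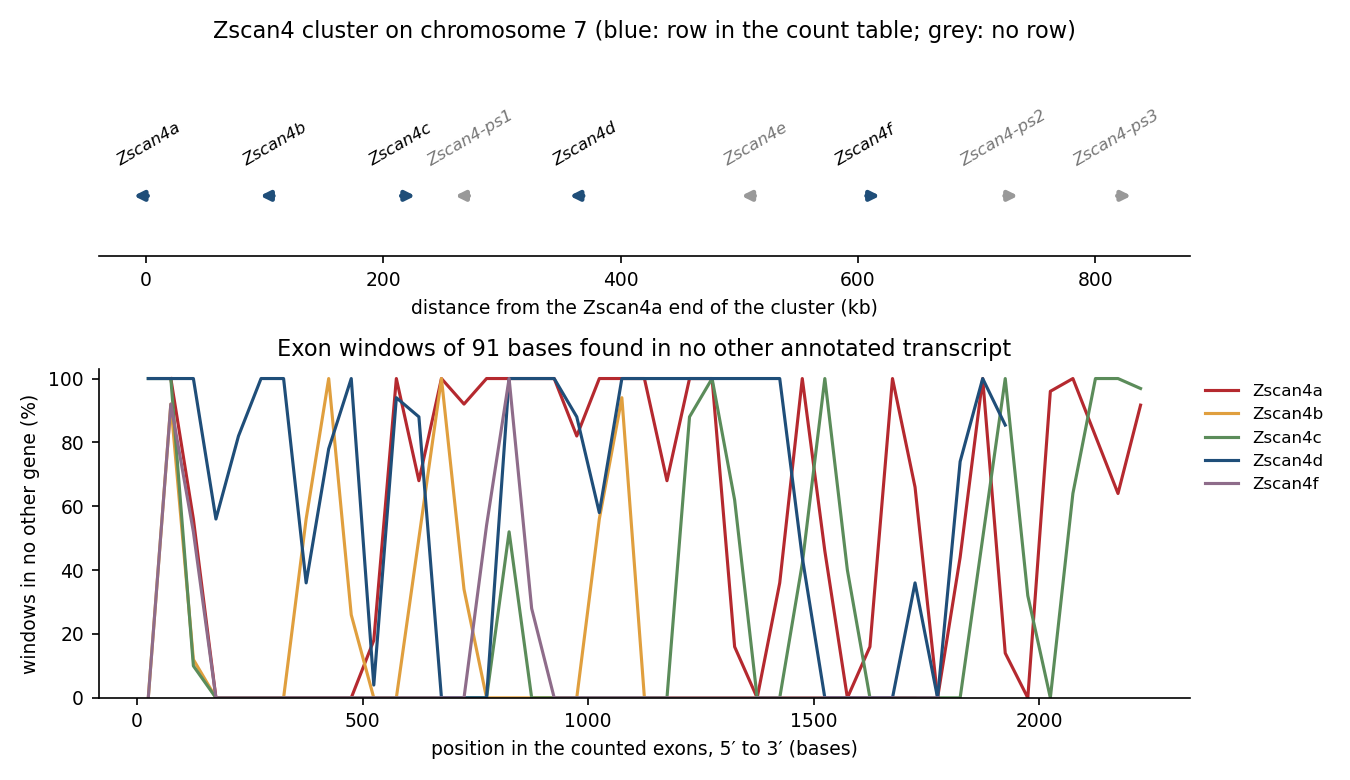
Upper panel, map of the Zscan4 cluster with distance along chromosome 7 in kb, arrows pointing in the direction of transcription, counted members in blue and copies with no row in grey. Lower panel, share of 91-base exon windows found in no other annotated transcript (%) along the counted exons of each member, in 50-base bins; Zscan4d and Zscan4a hold most of their sequence to themselves, whereas Zscan4f does so over 9.37% of its windows.

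Total gene fragments ranged from 8705584 to 17797581 per sample, and the Kdm5b row, which counts injected and native transcripts together, took 2.30% to 15.8% of fragments in injected samples and at most 0.0189% in controls. It was removed before normalisation. Of 17 cumulus cell markers, the summed level ran from 5.61 to 24.2 CPM over all samples, where CPM are counts scaled to library size, against 6210 to 12139 CPM for 14 oocyte and zygote markers. Control 2C replicate 5 was low in every member. The control stage differences, and the Kdm5b differences of Zscan4a and Zscan4b in 2C samples, are also given without it. Other results with control 2C samples include replicate 5 unless stated.

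In control zygotes most counted fragments of the cluster lay on Zscan4d and Zscan4c. In control 2C samples all 5 members were detected, except that replicate 5 held no fragment of Zscan4b or Zscan4f. Levels below are in TPM, counts scaled by exon length and by the total of the sample. Since members differ in their share of unshared sequence, TPM compare a member between samples better than they compare members with each other. For Zscan4d the control zygotes ran from 2.36 to 14.2 TPM with a median of 7.27 (n = 10). Control 2C replicates 1 to 9 read 79.8, 105, 86.8, 131, 15.4, 86.2, 33.7, 88.6 and 57.6 TPM. Every control 2C sample lay above every control zygote.

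Zscan4a, the transcribed pseudogene, went from a zygote median of 0.174 TPM (0 to 0.953, 7 of 10 samples above 0) to 2C values of 44.0, 54.4, 41.6, 67.7, 12.3, 52.7, 25.9, 41.1 and 27.0 TPM in replicates 1 to 9. No 2C sample came near the zygote range, and replicate 5 was again the lowest. Zscan4c ran from 0.0758 to 5.86 TPM in zygotes (median 1.95). Its control 2C values were 53.8, 11.2, 56.0, 38.3, 1.86, 60.1, 13.3, 37.7 and 28.2 TPM, so that replicate 5 fell inside the zygote range and the other 8 above it.

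Zscan4f and Zscan4b had the fewest fragments in control zygotes. They also had the fewest unshared windows, 163 and 310, against 1239 for Zscan4a, so these counts do not rank the members by level. Zscan4f had 25 fragments in all 10 control zygotes together, and 35.7, 23.8, 40.5, 37.9, 0, 38.0, 21.0, 42.2 and 23.4 TPM in control 2C replicates 1 to 9. Zscan4b had 12 fragments in the 10 zygotes, and 41.0, 14.5, 2.48, 47.0, 0, 6.91, 6.09, 26.5 and 34.1 TPM in the 2C samples. Replicate 5 held 0 of 8705584 fragments of either, which allows up to 0.345 CPM (3 counts, counting error only).

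**Figure D2:**
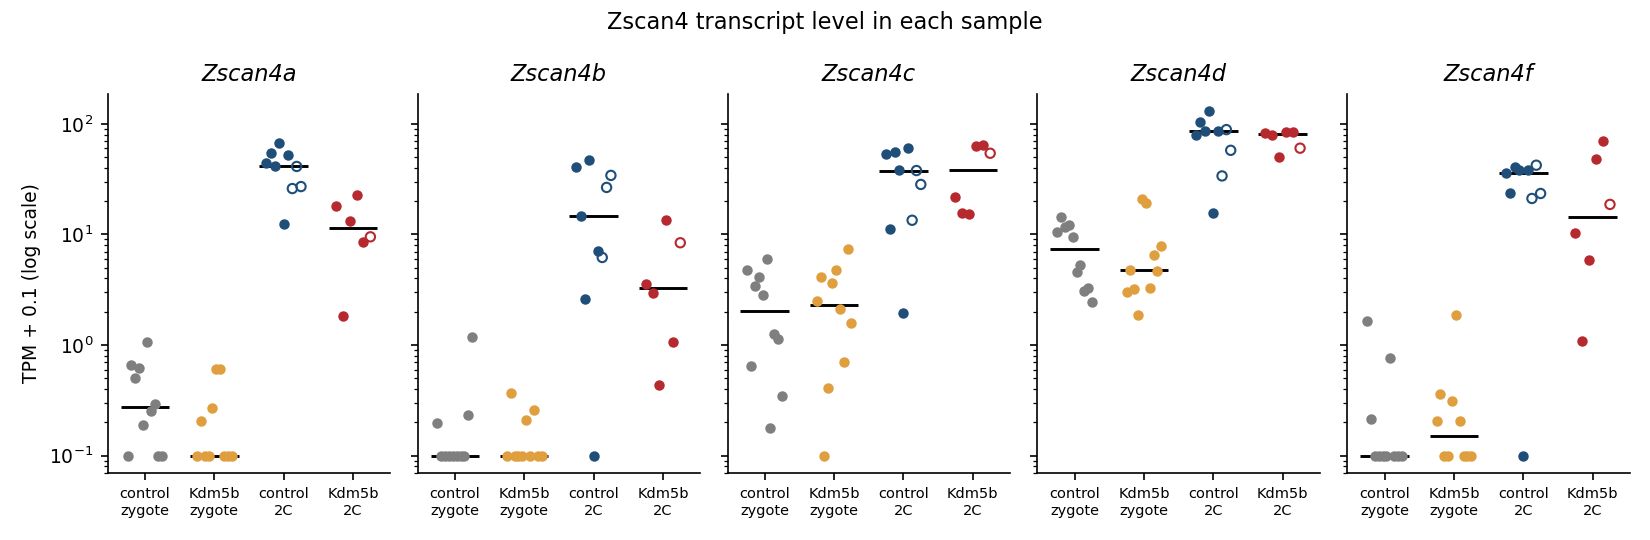
TPM + 0.1 on a log axis for each member in each sample, by group, with black bars at the medians; filled points are single embryos and open points are pools of blastomeres. In Zscan4a and Zscan4d every 2C sample lies above every zygote of the same treatment, and 1 control 2C sample sits at 0 for Zscan4b and Zscan4f.

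The stage comparison asked which genes changed between the zygote and the 2C embryo. Among 11968 genes tested with edgeR's quasi-likelihood test, 22.2% passed an adjusted p under 0.05 (Benjamini-Hochberg) and an absolute log2 difference over 1, and 9.20% were higher in 2C samples. All 4 members that entered the test rose, whereas the median difference over all genes was 0.022 on the log2 scale. Zscan4a and Zscan4f, with 32 and 25 fragments over the 10 control zygotes, passed the filter on low counts mainly through their 2C samples. A rise was therefore likely for them once tested. Zscan4a rose by 7.20 (SE 0.47, 9 against 10 samples; edgeR adjusted p = 8.54e-12) and ranked 4 by p among genes higher in 2C. Zscan4f rose by 6.84 (SE 0.77, edgeR adjusted p = 5.57e-08), Zscan4c by 3.89 (SE 0.58, edgeR adjusted p = 3.02e-06) and Zscan4d by 3.41 (SE 0.36, edgeR adjusted p = 1.91e-08). The members with the smaller rise were those with the higher zygote level. Zscan4b was left out by the filter on low counts. It was tested once replicate 5 was left out, with a difference of 7.31 (edgeR adjusted p = 2.71e-08). Zscan4b had 12 fragments over the 10 control zygotes and entered that test through its 2C samples, so its rise was likely as well. Without replicate 5 the other members stood at 7.33 for Zscan4a, 7.00 for Zscan4f, 4.05 for Zscan4c and 3.55 for Zscan4d.

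In 2 members, Zscan4a and Zscan4d, every control 2C sample lay above every control zygote, a separation that 6.64% of all genes tested showed. For Zscan4b, Zscan4c and Zscan4f it held in 8 of 9 samples, all but replicate 5. A 2C sample is a whole embryo or a few blastomeres, so fewer expressing cells and less RNA per cell cannot be told apart.

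The order of the members by TPM changed with stage, and only its top was clear. Zscan4d had the highest median in every group, and it exceeded the next member in 9 of 10 control zygotes, 9 of 10 Kdm5b zygotes, 9 of 9 control 2C samples and 6 of 6 Kdm5b 2C samples. Below it in control 2C samples, the medians of Zscan4a (41.6 TPM), Zscan4c (37.7 TPM) and Zscan4f (35.7 TPM) followed one another closely, in that order in 5 of 9 and 6 of 9 samples, so these neighbours did not differ beyond their spread. Zscan4b came last, at 14.5 TPM, and lay under Zscan4f in 5 of 9 samples. Dividing by the number of unshared windows in place of the exon length turned the order over. The control 2C medians then became 401 for Zscan4f, 155 for Zscan4c, 136 for Zscan4d, 82.02 for Zscan4b and 75.8 for Zscan4a. Comparisons of a member with itself across samples do not depend on this choice.

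Other genes of the 2C window moved in the same direction. Of 27 listed 2-cell genes with a row, 22 were tested, 20 rose and 1 fell in control 2C samples against control zygotes, with a median log2 difference of 5.23. Listed genes with few zygote fragments, such as Gm5662 with 9 over the control zygotes, entered the test through 2C samples. The 4 risen genes with the smallest p were Gm5662 (9.75, SE 0.53, edgeR adjusted p = 6.19e-13), Gm8300 (7.83, SE 0.53), Ubtfl1 (7.15, SE 0.55) and Gm2022 (8.35, SE 0.65), and the 1 that fell was Arg2 (-1.47, SE 0.20), an arginase of mitochondria. Of 7 activators of the 2-cell-like state, 3 rose, namely Tbx3 (1.46, SE 0.22), Spz1 (4.61, SE 0.55) and Gata2 (1.97, SE 0.36), and Dppa2 and Dppa4 stood at 0.12 (SE 0.15) and 0.49 (SE 0.40) with no call. Of 15 listed repressors of that state, Mga rose (1.00, SE 0.12) and Dnmt1 (-2.37, SE 0.16) and Pcgf6 (-1.17, SE 0.14) fell. Of 14 tested telomere and recombination genes, Terf2ip rose (1.68, SE 0.45), and Terf1 (-2.71, SE 0.21) and Terf2 (-1.10, SE 0.10), which encode telomere-binding proteins, fell. In both of these lists the 3 called genes were a share near the 22.2% called over all genes, and so are no result about the lists. Of 10 tested genes named Zscan outside the cluster, 1 rose, Zscan5b (2.77, SE 0.43), and 2 fell, Zscan12 (-1.50, SE 0.22) and Zscan10 (-1.30, SE 0.41). This share too was near that over all genes. Of 14 oocyte and zygote markers 5 fell, with Padi6 (-1.81, SE 0.14), Ooep (-1.81, SE 0.13), H1foo (-2.07, SE 0.19) and Nlrp5 (-1.60, SE 0.17) leading by p, and neither of the 2 tested cumulus cell markers was called.

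MERVL ran beside the cluster. Its internal part, MERVL-int, had a median of 2161 CPM in control zygotes and 108540 CPM in control 2C samples. Repeat CPM were scaled to the repeat counts and are not on the scale of the gene CPM. Between these groups MERVL-int rose by 5.02 on the log2 scale (SE 0.53, edgeR adjusted p = 1.30e-07). The long terminal repeat of MERVL, MT2_Mm, rose by 3.33 (SE 0.27, edgeR adjusted p = 1.77e-09). Of 2635 repeats tested, 9.56% were called. Control 2C replicate 5, the sample with the lowest Zscan4 levels, also had the lowest MERVL-int (44698 CPM) and MT2_Mm (3421 CPM) of the 9. Replicate 1 was close to it in MERVL-int, at 46313 CPM, and stood among the higher samples for Zscan4 with 254 TPM summed over the members, against 29.6 TPM in replicate 5.

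In embryos that had received Kdm5b mRNA, the members also rose from zygote to 2C. Here 26.5% of 12390 genes passed the test. Zscan4a rose by 6.46 (SE 0.64, edgeR adjusted p = 6.88e-09), Zscan4f by 6.65 (SE 0.78, edgeR adjusted p = 9.93e-08), Zscan4c by 3.99 (SE 0.52, edgeR adjusted p = 4.11e-07) and Zscan4d by 3.39 (SE 0.38, edgeR adjusted p = 5.22e-08), with 6 against 10 samples. Zscan4b was again left out by the filter, and without the filter it rose by 6.30 (edgeR adjusted p = 2.34e-07). Zscan4a and Zscan4f, with 15 and 23 fragments over the 10 Kdm5b zygotes, again passed the filter mainly through their 2C samples. In 4 members, all but Zscan4f, every Kdm5b 2C sample lay above every Kdm5b zygote, which 12.2% of genes tested showed. For Zscan4f 5 of 6 samples did. Of 19 tested 2-cell genes 16 rose and 1 fell, and MERVL-int rose by 4.78 (SE 0.44, edgeR adjusted p = 9.50e-09) and MT2_Mm by 2.698 (SE 0.21, edgeR adjusted p = 5.26e-10). Of 2740 repeats tested, 14% were called. Of the other lists, 3 of 7 activators rose, 5 of 15 repressors fell, 1 of 14 telomere and recombination genes rose and 2 fell, 1 of 10 other Zscan genes rose and 2 fell, 6 of 14 oocyte and zygote markers fell, and 1 of 3 cumulus cell markers rose, Kitl. Over all genes 10.5% rose and 16% fell. The calls among telomere and recombination genes and other Zscan genes were near the 26.5% over all genes, and so are no result about these lists.

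The direct question for Kdm5b was whether its mRNA changed the transcripts of injected zygotes or 2C embryos. Over all zygotes no member was called. Only 0.00838% of 11933 genes passed, 1 gene in all. Zscan4d ran from 1.76 to 20.8 TPM in Kdm5b zygotes (median 4.62) against 2.36 to 14.2 TPM in controls, and differed by -0.00067 on the log2 scale (95% interval -0.80 to 0.80). Zscan4c ran from 0 to 7.26 TPM (median 2.21) against 0.0758 to 5.86 TPM, with a difference of 0.17 (95% interval -1.02 to 1.37). The groups overlapped for both members, and the interval of Zscan4c leaves room for a change of up to 1.37 on the log2 scale. Zscan4a, Zscan4b and Zscan4f had 15, 4 and 23 fragments in the 10 Kdm5b zygotes together and were not tested. By DESeq2's Wald test no member was called either, though Zscan4a, Zscan4b and Zscan4f had no adjusted p there. In the edgeR test 10.3% of all genes had an unadjusted p under 0.05, but neither of the 2 tested members.

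In zygotes the level of Zscan4d differed between index strips. A strip here is a set of 8 consecutive index numbers, inferred from the library names, and the labels do not say that it marks a batch. In strip 8, 4 control zygotes read 10.5 to 14.2 TPM and 4 Kdm5b zygotes 1.76 to 4.63 TPM. In strip 9, 4 controls read 2.99 to 9.35 TPM and 4 Kdm5b zygotes 3.15 to 20.8 TPM, and in strip 10, 2 controls read 2.36 and 3.17 TPM and 2 Kdm5b zygotes 4.61 and 7.84 TPM. All Kdm5b zygotes thus lay below all controls in strip 8 and above them in strip 10, and the groups overlapped in strip 9. The share of all genes so separated within a strip was not counted, and with 2 against 2 zygotes like groups often separate. Fits within strips, chosen after the values were seen, gave Zscan4d a difference of -1.94 in strip 8 (edgeR adjusted p = 0.0441, with 0.0249% of 12049 genes called), 1.19 in strip 9 (edgeR adjusted p = 0.778) and 1.20 in strip 10 (edgeR adjusted p = 0.639, with 0% and 0.0247% of genes called). The difference near 0 over all zygotes therefore joined estimates of opposite sign, of which only that in strip 8 was called. With the strip as a covariate the difference over all zygotes was -0.0043. Whether the strips differed in their response was not tested. Zscan4c stood at -0.88, 0.17 and 2.79 in strips 8, 9 and 10, with no call.

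Zygotes of the same group differed from one another more in Zscan4d than in most genes, and part of this followed the strip. The biological coefficient of variation of Zscan4d was 0.464 in control and 0.580 in Kdm5b zygotes, above 99.5% and 99.9% of genes, where the trend for genes of its level was 0.318 and 0.303. Within strips it was 0.307 and 0.440, above 83.7% and 99.4% of genes, where the trend was 0.316 and 0.297. The value within strips in control zygotes thus lay under the trend for genes of its level. In 2C samples Zscan4d reached 0.444 in controls and 0.234 in Kdm5b samples, above 78.3% and 31.8% of genes, whereas Zscan4c in control 2C samples (0.643) lay above 98.9% of genes and Zscan4a in Kdm5b 2C samples (0.548) above 97.6%. The trends for these values were 0.297, 0.249, 0.366 and 0.420, in the same order. These values are descriptions of the spread, and zygotes held 11627845 to 17797581 fragments.

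In 2C samples no member was called between Kdm5b and control embryos, and Zscan4a and Zscan4b had the largest differences. With 0.00817% of 12244 genes called, a single gene, none of the 5 members passed the main test, and 9.41% of all genes had an unadjusted p under 0.05, which 2 members shared, Zscan4a and Zscan4b. Zscan4a read 18.0, 1.71, 13.1, 22.6, 8.44 and 9.41 TPM in Kdm5b 2C replicates 1 to 6. All 6 lay under the control median of 41.6 TPM, and 3 lay under the lowest control sample (12.3 TPM, replicate 5). The log2 difference was -1.69 (SE 0.40, 95% interval -2.53 to -0.86, 6 against 9 samples; edgeR adjusted p = 0.154), and Zscan4a ranked 29 by p among the 12244 genes. The call for Zscan4a turned on the model. DESeq2's Wald test gave -1.71 with an adjusted p of 0.00217, edgeR with all 35 samples in 1 fit gave -1.71 with an adjusted p of 0.0304, and edgeR with a term for the index strip gave -1.89 with an adjusted p of 0.0317. The share of all genes called under these alternatives was not counted. The study, which also used DESeq2, reported no gene as changed between these 2C groups. Over all 25 alternatives it stayed between -1.99 and -1.47, with adjusted p from 0.00217 to 0.377.

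Zscan4b read 3.48, 2.88, 0.336, 13.5, 0.972 and 8.31 TPM in the 6 Kdm5b 2C samples, all under the control median of 14.5 TPM and all within the control range of 0 to 47.0 TPM. The difference was -1.94 (SE 0.82, 95% interval -3.65 to -0.23, edgeR adjusted p = 0.459). Without control 2C replicate 5 the differences were -1.81 for Zscan4a (edgeR adjusted p = 0.0883) and -2.11 for Zscan4b (edgeR adjusted p = 0.238).

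The other members had estimates nearer 0 with wide intervals, which do not show that they were unchanged. Zscan4d had the narrowest interval. It read 81.9, 79.3, 50.2, 85.1, 85.02 and 60.2 TPM, all inside the control range, with a difference of -0.0028 (SE 0.30, 95% interval -0.62 to 0.62). Zscan4c read 21.8, 15.4, 15.2, 62.6, 64.05 and 54.1 TPM, falling into 3 lower and 3 higher samples around the control median of 37.7 TPM, with a difference of 0.28 (SE 0.49, 95% interval -0.73 to 1.29). Zscan4f read 10.2, 0.9755, 5.80, 48.4, 69.3 and 18.6 TPM, a wider span than in controls. Its median was 14.4 TPM against 35.7 TPM, and 4 of 6 samples lay under the control median. The difference was -0.15 (SE 0.66, 95% interval -1.52 to 1.23), and it ran from -1.01 with the replicate block to 0.10 over the 25 alternatives. Kdm5b 2C replicates 4 and 5 were the highest for both Zscan4c and Zscan4f, the pair with the most similar exons.

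**Figure D3:**
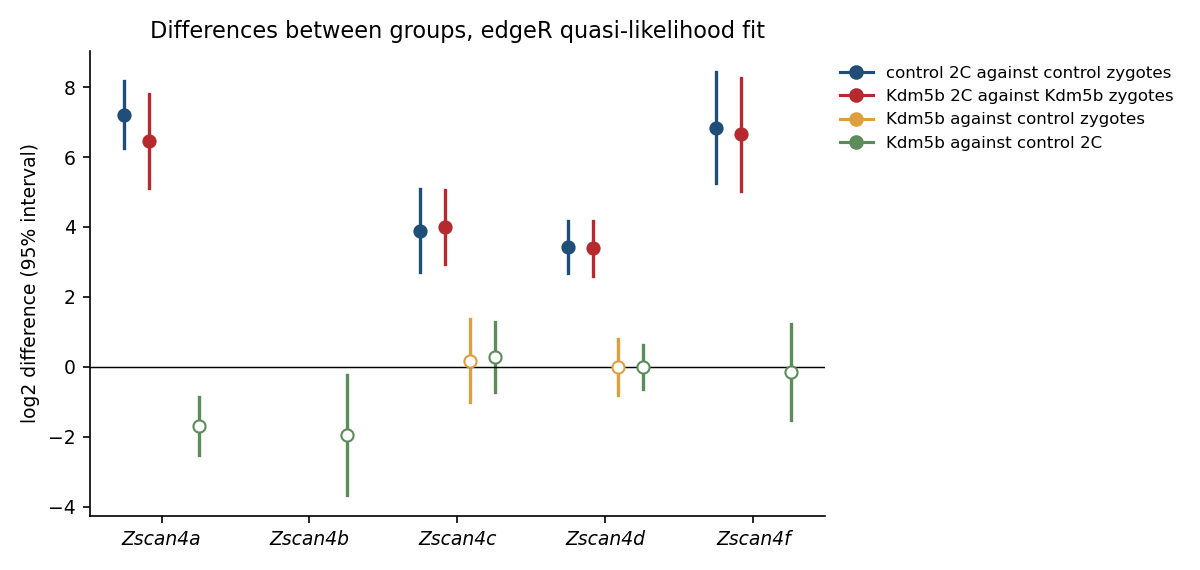
Log2 difference of each member in 4 comparisons, with 95% intervals; filled points passed the edgeR test and open points did not, and members not tested have no point. Both stage comparisons lie between 3.39 and 7.20 for the tested members, and Kdm5b against control 2C lies under 0 for Zscan4a and Zscan4b and near 0 for the other 3.

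Related genes stood as follows in the same comparison. None of 26 tested 2-cell genes was called, 24 had a negative difference, and their median was -0.57 against -0.0028 over all genes, of which 49.7% were positive. Between pooled and single control 2C samples, 23 of 26 also had a negative difference, with a median of -0.43. The list thus leaned to 1 side without a difference in treatment too, and its signs are not separate results. Between Kdm5b and control 2C samples MERVL-int stood at -0.94 (SE 0.39, edgeR adjusted p = 0.740) and MT2_Mm at -0.72 (SE 0.32, edgeR adjusted p = 0.741). None of the 7 activators, 15 repressors, 14 telomere and recombination genes, 10 other Zscan genes, 14 oocyte and zygote markers or 3 cumulus cell markers was called in 2C samples, and none of the tested genes of these lists was called in zygotes.

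Within the cluster, the share of counts taken by Zscan4a separated the 2C groups. This ratio was chosen after the values had been seen, and is given as a description. For every Zscan4d fragment, control 2C samples held 0.525 to 0.908 Zscan4a fragments (median 0.589, n = 9), and Kdm5b 2C samples held 0.0245 to 0.301 (median 0.213, n = 6). The groups did not overlap, and control 2C replicate 5, with 79 Zscan4a and 87 Zscan4d fragments, had the highest ratio of all rather than the lowest. Of 12243 genes tested against Zscan4d in the same way, 2 genes, or 0.0163%, had every Kdm5b 2C sample below every control 2C sample, namely Zscan4a and Gm6902. None of the 2-cell genes tested did. That share is a background and not an error rate. The Zscan4d counts ran from 87 to 921 in control and from 339 to 607 in Kdm5b 2C samples. A gene that did not follow Zscan4d thus had widely spread control ratios and could hardly separate the groups. Zscan4a followed Zscan4d closely in controls (r = 0.97), so the share makes its separation look rarer than it may be.

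Since the groups did not overlap over all samples, they could not overlap within an index strip, and the strip values add no support. In strip 11 the ratio of Zscan4a to Zscan4d was 0.543 to 0.6254 in 3 control samples and 0.0245 to 0.301 in 5 Kdm5b samples. In strip 12 this ratio was 0.525 to 0.908 in 6 control samples and 0.112 in the 1 Kdm5b sample. The ratios of the other members to Zscan4d overlapped between the groups. For Zscan4c they ran from 0.122 to 0.796 in controls and 0.222 to 1.03 in Kdm5b samples, for Zscan4f from 0 to 0.573 and 0.0113 to 0.748, and for Zscan4b from 0 to 0.522 and 0.0059 to 0.140. As a share of all Zscan4 fragments, Zscan4a took 17.8% to 44.4% in controls and 1.90% to 16.8% in Kdm5b samples. Zscan4d took 30.7% to 49.0% and 35.7% to 77.5%. In zygotes the ratio rested on 0 to 10 Zscan4a fragments per sample and was not compared.

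**Figure D4:**
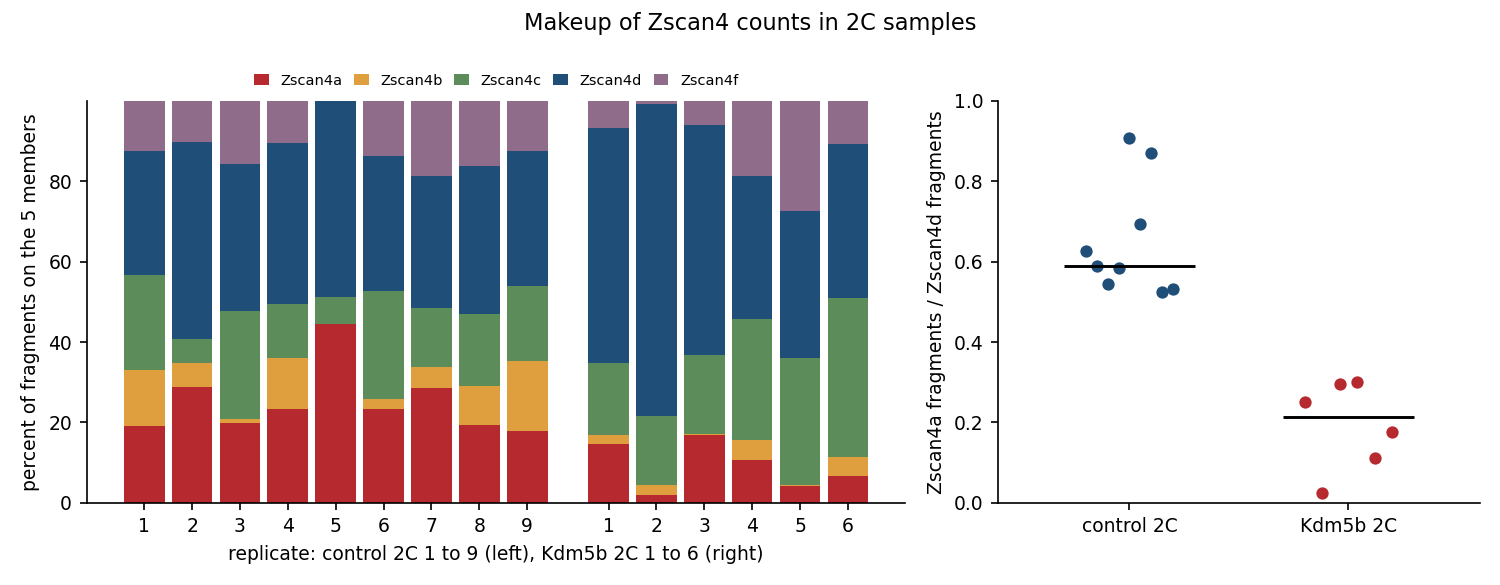
Left, share of the fragments on the 5 members taken by each (%), in control 2C replicates 1 to 9 and Kdm5b 2C replicates 1 to 6. Right, Zscan4a fragments per Zscan4d fragment in each sample, with bars at the medians; the 6 Kdm5b samples lie between 0.0245 and 0.301 and the 9 control samples between 0.525 and 0.908.

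The interaction of Kdm5b mRNA and stage, which tests whether the zygote-to-2C change differed between treatments, called none of the 5 members among 13778 genes (0.0145% called). Zscan4a had the estimate -0.73 (SE 0.98, 95% interval -2.71 to 1.24, edgeR adjusted p = 0.892), with the few zygote fragments setting its width, and Zscan4d -0.0080 (SE 0.55). Of all genes, 9.10% had an unadjusted p under 0.05 in this test, and 0 of the 5 members did. The stage effects of the treatments were thus not shown to differ for any member.

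How a 2C sample was made up left no called difference either. Between 3 pooled and 6 single control 2C samples 0% of 12860 genes passed by edgeR, 2.81% had an unadjusted p under 0.05, and DESeq2's Wald test called no member. Zscan4a differed by -0.46 (SE 0.40) and Zscan4d by -0.41 (SE 0.46). The slope on the Kdm5b share across the 6 Kdm5b 2C samples, per doubling of that share, was tested in 9499 genes, of which 0% passed and 7.82% had an unadjusted p under 0.05. Zscan4a had a slope of 1.79 (SE 0.82, unadjusted p = 0.0459, edgeR adjusted p = 0.627), in the direction of more Zscan4a with more Kdm5b, Zscan4c 1.05 (SE 0.65) and Zscan4d 0.077 (SE 0.33), and Zscan4b and Zscan4f were not tested. Single samples moved these slopes. That of Zscan4a was 0.93 without Kdm5b 2C replicate 2 and at most 2.40 when another sample was left out, and that of Zscan4c was 0.59 without replicate 2 and 2.22 without replicate 5.

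Across control 2C samples the members rose and fell together, though in part this rested on few samples. Over the 10 pairs of members, Pearson's r of log2(CPM + 1) ran from 0.57 to 0.97 (n = 9), and in 7 pairs an exact permutation test gave an adjusted p under 0.05 over the 10 pairs. Spearman's rho ran from 0.20 to 0.87 and 1 pair passed. The closest pair was Zscan4a and Zscan4d (r = 0.97, exact permutation p = 7.72e-05, adjusted p = 0.000772; rho = 0.87, exact permutation p = 0.00451, adjusted p = 0.0451). When the 2 samples farthest from the median of the member named earlier in each pair were left out, r ran from -0.085 to 0.88 and 0 pairs passed. Of the 7 pairs that had passed, 4 then had r from 0.25 to 0.51, so that their relation rested on the samples left out. The other 3 kept a high r over the samples that remained, though none passed after adjustment: Zscan4a and Zscan4d (r = 0.88, exact permutation p = 0.00556, adjusted p = 0.0556), Zscan4c and Zscan4f (r = 0.82, exact permutation p = 0.0228, adjusted p = 0.114) and Zscan4c and Zscan4d (r = 0.76, exact permutation p = 0.0698, adjusted p = 0.233). In strip 12 alone r ran from 0.77 to 0.97 (n = 6, replicate 5 among them), and strip 11 held 3 samples, too few for a value.

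Across the 6 Kdm5b 2C samples r ran from -0.11 to 0.90 and no pair passed the exact permutation test. Zscan4a and Zscan4d had the lowest value there (r = -0.11, exact permutation p = 0.783), and Zscan4c and Zscan4f the highest (r = 0.90, exact permutation p = 0.0153, adjusted p = 0.153). The difference in r between the groups was not tested.

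The genes outside the family whose level was most like the summed members over the 9 control 2C samples were Zfp3 (r = 0.96), Lss (r = 0.94), Arf2 (r = 0.93), Arid3c (r = 0.93) and Ppm1d (r = 0.92), of 12094 genes with a mean of at least 1 CPM. None was in the list of 2-cell genes, and all 5 had their lowest control 2C value in replicate 5, so these r share that sample. Over the 6 Kdm5b 2C samples their r was 0.25, -0.083, -0.080, 0.51 and -0.020. By stage, Zfp3 fell (-1.17, SE 0.30) and Arf2 rose (2.48, SE 0.35). The 26 2-cell genes at that level had a median r of 0.48 with the summed members, against 0.018 over all genes.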

How the data were processed

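Single zygotes and 2C embryos, and some pools of blastomeres, were sequenced as paired-end stranded RNA-seq libraries. Per the study's methods and the submitters' processing notes, the authors trimmed reads with fastp 0.21.0, mapped them to GRCm38/mm10 with STAR 2.7.3a and deposited whole-number counts of fragments per RefSeq gene made with featureCounts 1.5.1, with multi-mapping fragments left out. For repeats the authors deposited estimated counts from SalmonTE, which were rounded to whole numbers here. Samples were grouped by treatment and stage from the labels. Members, gene lists and tests were chosen with earlier results of these data known.

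The Kdm5b row was removed. Counts were normalised by TMM in edgeR 4.0.16 after filterByExpr (minimum count 10) and tested by its quasi-likelihood test with Benjamini-Hochberg adjustment over all genes tested, and a gene was called where its adjusted p was under 0.05 and it differed by more than 1 on the log2 scale (no fold threshold for the slope). Each comparison used its own groups only; the interaction used all 4. DESeq2 1.42.0 was an alternative, as were other factors, no filter, the Kdm5b row kept, no fold threshold, a replicate block, 1 fit of all samples, the index strip, single embryos only and leaving each sample out. TPM were computed from the counts and exon lengths, and CPM used TMM factors. Fits were tested on simulated data with 200 genes changed by 2 on the log2 scale.

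Named genes were the members, other rows of the cluster, the 5 genes most correlated with the summed members, other Zscan genes, and up to 4 called genes per list, comparison and direction with the smallest p. Exon windows of 91 bases were searched on both strands of GENCODE M21 transcripts; the genome itself was not used here. Identities came from Biopython 1.88 global alignments without end gap costs, and promoters from RefSeq (GRCm38.p6). Correlations used exact permutations in 2C samples and random permutations in zygotes. Replicates are separate embryos or pools by their labels.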

Additional observations from a re-analysis of the deposited data

Results flagged for a closer look

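In 24 sets of a member, or of the members' sum, in 1 group, 4 had a sample set apart from the rest by Dixon's gap test at the 95% level. For separate sets of normally distributed values chance gives this in about 1 set in 20, but these sets share samples. Zscan4f was at 0 CPM in control 2C replicate 5, the library that was also lowest in the other members. The stage difference of Zscan4f with and without that library stands in the report. Of the other 3 sets, all were zygotes with few fragments. Zscan4b and Zscan4f were above 0 in 3 of 10 control zygotes each, and Zscan4f in 5 of 10 Kdm5b zygotes. The rate for normal values does not hold for such sets. Zscan4b stood at 0.623 CPM in control zygote replicate 10, Zscan4f at 0.934 CPM in control zygote replicate 1, and Zscan4f at 1.07 CPM in Kdm5b zygote replicate 6.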

How the results depend on the processing

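The 4 members called between stages were called under every alternative in which they were tested, and Zscan4b joined them by DESeq2's Wald test, without the filter and in 1 fit of all samples. For Kdm5b against control 2C samples, members called went from 0 to 1, Zscan4a, by DESeq2's Wald test, with all samples in 1 fit and with the index strip as a covariate. The cause was not tested, and the share of all genes called under these alternatives was not counted. For Kdm5b against control zygotes it went from 0 to 1, Zscan4d, within index strip 8. Leaving out 1 sample gave 3 to 5 members called for control 2C against control zygotes, 3 to 4 for Kdm5b 2C against Kdm5b zygotes, and 0 in the other comparisons so treated. The 3 came without control zygote replicate 1 and without Kdm5b zygote replicate 6, when Zscan4f no longer passed the filter, and the 5 without control 2C replicate 5. Pairs of members correlated at an adjusted p under 0.05 went from 7 to 0 with single intact embryos only, where 6 samples are left, and to 0 without the 2 samples farthest from the median.

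Differences near 0 changed sign. In Kdm5b against control zygotes, with strips chosen after seeing the data, Zscan4d had 1.19 in index strip 9 and 1.20 in strip 10, and Zscan4c -0.88 in strip 8. In Kdm5b against control 2C samples, Zscan4d had 0.016 with the replicate block and -0.14 to 0.13 when 1 sample was left out, Zscan4f had -0.73 to 0.10 when 1 sample was left out, and Zscan4c had -0.16 within index strip 11, an alternative chosen after seeing the data. In the interaction Zscan4c had -0.42 with the replicate block and -0.18 with single embryos only. When 1 sample was left out, pooled against single samples ran from -0.31 to 0.24 for Zscan4f and from -0.13 to 0.85 for Zscan4b, and the slope of Zscan4d from -0.13 to 0.24. None of these was called.

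Samples with the same replicate number shared only a number, since their deviations correlated between -0.26 and 0.11 and 5 of 31 samples correlated best with their own number. The replicate block left the calls of members at 4, 4, 0, 0 and 0 in the 5 comparisons with it, with -1.90 for Zscan4a in 2C samples (adjusted p = 0.0778, edgeR). Depth limits Zscan4a, Zscan4b and Zscan4f in zygotes, and unshared sequence limits Zscan4b and Zscan4f everywhere.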

Other observations

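MERVL-int and Zscan4d were compared across the samples within each group, a relation chosen after the data had been seen. Over the 9 control 2C samples Pearson's r of log2(CPM + 1) was 0.71 (exact permutation p = 0.0187, adjusted over the 4 groups 0.0749) and Spearman's rho 0.73 (exact permutation p = 0.0311, adjusted 0.124), and without the 2 samples farthest from the median of MERVL-int r was 0.78 (exact permutation p = 0.0337). Over the 10 control zygotes r was 0.28 and rho 0.14 (permutation p = 0.445 and 0.709), over the 10 Kdm5b zygotes 0.52 and 0.35 (permutation p = 0.126 and 0.330), and over the 6 Kdm5b 2C samples 0.59 and 0.37 (exact permutation p = 0.196 and 0.497). No group passed after adjustment. Index strips held 2 to 4 zygotes of a group, too few for a value within strips.

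Among genes set against Zscan4d in 2C samples, 2 had every Kdm5b sample above every control sample, Epn3 and Unc119, and Gm6902 was the only gene besides Zscan4a with every Kdm5b sample below. Gm6902 had 664 fragments over the 9 control samples and 55 over the 6 Kdm5b samples.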
